A study of Mus musculus with 21 samples.

Results

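Levels of 9 transcripts were followed here through every RNA-Seq group of a study of mice that lack single long noncoding RNAs. They were *Sox2*, its SOX group B relatives *Sox1*, *Sox3*, *Sox14* and *Sox21*, and 4 transcripts from the stretch of chromosome 3 around the lincRNA *Peril*, namely *Sox2ot*, *linc-Atp11b-4*, *linc-Atp11b-3* and *Atp11b*. The 9 were chosen by gene name, out of 48595 distinct symbols in the 3 deposited tables, by someone who had seen their levels in the *Peril* comparison. Their values in that comparison are therefore a description and carry no test.

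RNA was taken from E18.5 brain of *Peril* -/- and +/+ mice (named linc-Sox2 in the sample labels), from E14.5 lung of *Fendrr* -/- and +/+ mice (named linc-Foxf1a there), and from linc-Brn1b -/- and +/+ mice at 3 ages, the telencephalon being taken at E13.5 and E15.5 and the whole brain at P7. The labels list 2 libraries per group, and 3 for the linc-Brn1b knockout at E15.5, giving 21 libraries in 10 groups and 5 comparisons of knockout with wild type. The results text of the study gives 1 library fewer for that group, and the pooled value does not show which were used. Each knockout allele put a *lacZ* reporter in place of lincRNA sequence, not always of the whole locus, together with a loxP-flanked neomycin resistance gene under the human ubiquitin C promoter. Whether that gene was still present in the mice sampled is not given in the sources used here. The lines were made in hybrid 129S6SvEv and C57BL/6N embryonic stem cells and then backcrossed once to C57BL/6J, and the wild types were littermates. In each table every group has 1 pooled FPKM value (sequenced fragments scaled to transcript length and to library size) per entry, with 0 columns of values per library. No standard deviation, interval or test could be given, and the depth of sequencing is unknown. The labelled tissues were checked against marker genes. All 5 telencephalon markers reached 1 FPKM in each brain comparison, with sums of 113 to 553 FPKM, and summed to at most 0.570 FPKM in lung, where the 4 lung epithelium markers summed to 1019 and 1043 FPKM. The targeted lincRNA checked the labels in 4 comparisons. The linc-Brn1b entry was at 1.60 FPKM (E13.5), 2.50 FPKM (E15.5) and 0.799 FPKM (P7) in the wild types and listed at 0 in all 3 knockouts. The entry over the *Fendrr* locus, *linc-Foxf1a-1*, was at 0.352 FPKM in wild-type and 0.0100 in *Fendrr* -/- lung, a low level in both. Another lincRNA entry on chromosome 8, *linc-Cox4nb-4*, was at 38.4 FPKM in wild-type and 0.0450 in *Fendrr* -/- lung. Whether that entry also covers *Fendrr* was not examined.

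SOX proteins bind DNA through an HMG box. *Sox1*, *Sox2* and *Sox3* form group B1, transcriptional activators that keep neural progenitors undifferentiated, and *Sox2* also maintains pluripotency in embryonic stem cells and marks the epithelium of the embryonic airways. *Sox14* and *Sox21* form group B2, which act mainly as repressors. *Sox2ot* is a long noncoding RNA transcribed across the *Sox2* gene, and *Atp11b* encodes a P4-ATPase, a flippase that moves phospholipids between the leaflets of a membrane.

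Across these genes the largest differences of the *Peril* comparison lay at the entry that overlaps the deletion and at *linc-Atp11b-3*, whose table locus is the next past it, not at *Sox2*. *linc-Atp11b-3* stood at 0.0601 FPKM in wild-type and 47.2 in *Peril* -/- brain, and *linc-Atp11b-4* at 0.0109 and 4.65 FPKM. *Sox2* stood at 30.5 FPKM in wild-type and 21.5 in *Peril* -/- brain. In the other 8 groups both linc-Atp11b entries were at most 0.0887 FPKM.

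The Peril locus and its deletion lie on the *Atp11b* side of *Sox2*. In mm9 coordinates the locus is chr3:34663091-34681268 (18178 bp) and the deletion chr3:34666771-34681214 (14444 bp, or 79.5% of the locus). GENCODE places *Sox2*, a single exon, at chr3:34548927-34551383 on the plus strand, so that the deletion begins 115 kb past its end. *Sox2* lies inside the 578182 bp *Sox2ot* gene (chr3:34003360-34581541, plus strand, 16 annotated transcripts), with 0 exonic bases shared between them. The annotation has no gene over the deletion, and 0 genes in the 1053 kb from the end of *Sox2ot* to the next annotated gene, a small nuclear RNA. *Atp11b* lies at chr3:35653056-35755196, 972 kb past the deletion. The positions of both linc-Atp11b entries are therefore those of the authors' transcript assembly and not of the annotation.

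The *linc-Atp11b-4* entry (XLOC_010775, chr3:34654563-34676217, 21655 bp) was the only 1 in the Peril table to overlap the deletion, and no entry was named Peril. It reached 12208 bp beyond the deletion on the *Sox2* side, which is 56.4% of its length, and 9447 bp into it. The table locus of *linc-Atp11b-3* (XLOC_010776, chr3:34725073-34777156) lay outside, starting 43.9 kb past the last deleted base. It is shared with other entries, listed at 0 in both genotypes, so the start of *linc-Atp11b-3* itself is not known. The 60 bases across the *Sox2*-side end of the deletion are shown because the *linc-Atp11b-4* entry spans it, with the 20 deleted bases in capitals.
*Sox2* side, chr3:34666731-34666790, plus strand: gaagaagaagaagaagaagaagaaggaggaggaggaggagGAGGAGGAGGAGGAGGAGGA

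This end sits in a purine repeat. The designed oligonucleotides for Peril were placed on the same chromosome to see how much of the transcript the deletion leaves. All 48 RNA FISH probes matched chromosome 3 exactly once, all 48 on the minus strand, which puts the RNA they detect on the plus strand, and all 48 fell inside the *linc-Atp11b-4* entry. Of these, 19 matched sequence that the knockout keeps and 29 matched deleted sequence. Probes 19 and 20 are the closest on either side of the first deleted base, 58 bp before it and 155 bp after it, and the qRT-PCR primers for Peril both matched deleted sequence.
FISH probe 19, kept, chr3:34666693-34666712, minus strand: tctgagtacacctcactgag
FISH probe 20, deleted, chr3:34666926-34666945, minus strand: tgtgccttgatgattgtacc
qRT-PCR primer forward, deleted, chr3:34668443-34668462, plus strand: tgagttattcaggcggaacc
qRT-PCR primer reverse, deleted, chr3:34670811-34670830, minus strand: ggtgagcttgtgtgctgaag

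The probes formed 3 runs separated by about 1 kb or more. The first run (probes 1 and 2) and 17 of the 18 probes of the second lay before the deletion, and the third (28 probes) lay wholly inside it. An FPKM value for the whole *linc-Atp11b-4* entry thus mixes kept and deleted sequence, and the table does not divide it. At 0.0109 FPKM in wild-type brain, the entry gives no level from which a loss could be read, so it does not check the genotype labels. That the *Peril* groups were not exchanged rests on the table's column names, which have the same form as those of the *Fendrr* table.

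**Figure D1:**
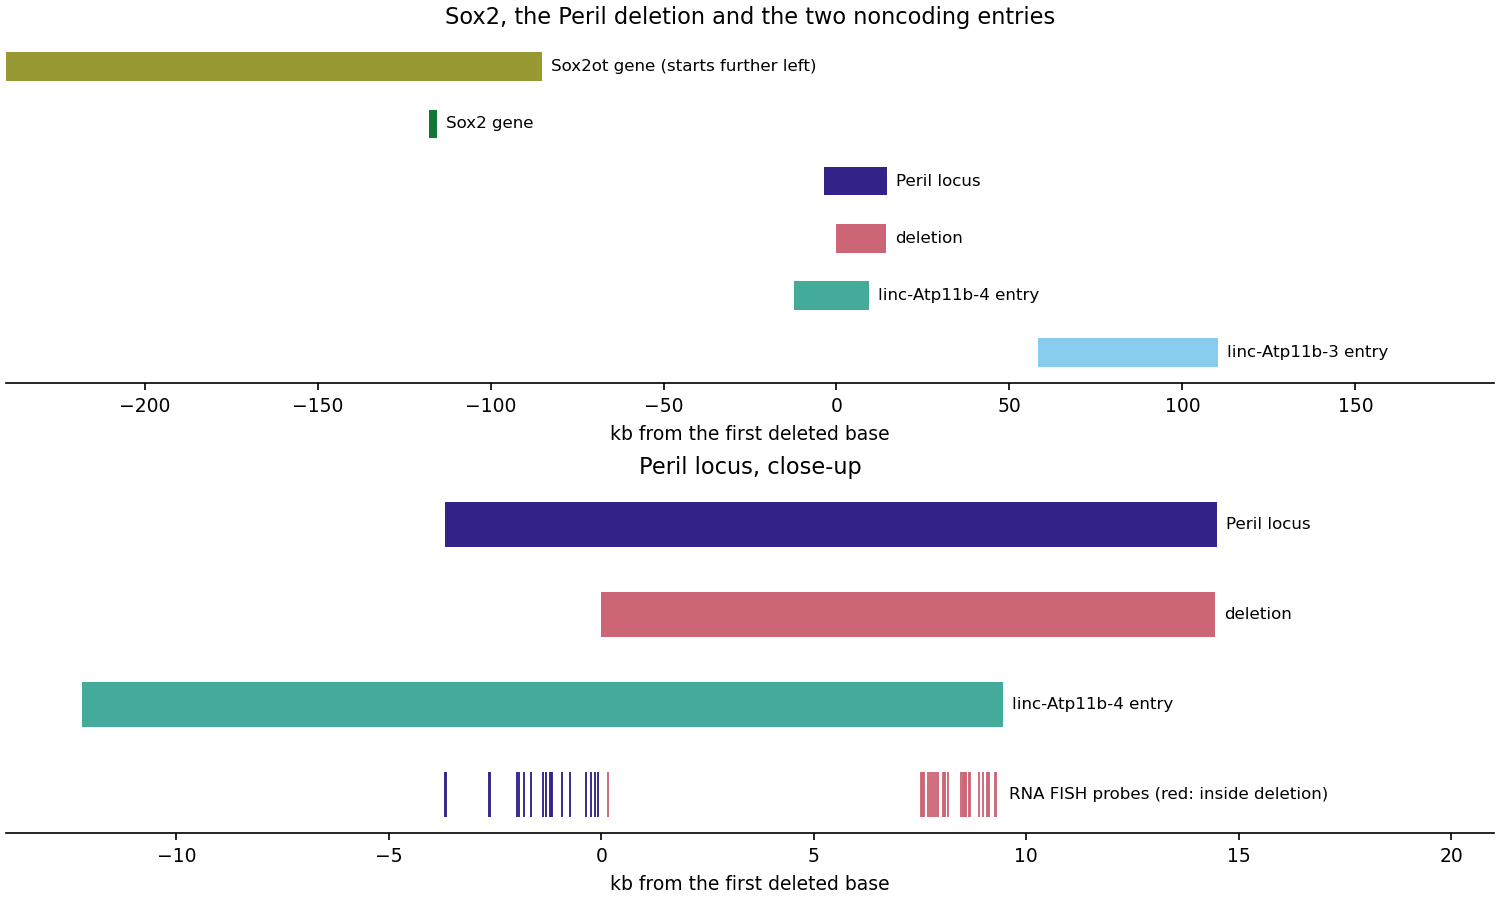
Map of the Peril region in kb from the first deleted base (upper panel, from the Sox2ot gene to the linc-Atp11b-3 entry; lower panel, close-up with each of the 48 RNA FISH probes as a tick, red where deleted). The linc-Atp11b-4 entry straddles the start of the deletion and 19 probes lie to the left of it. The bar of linc-Atp11b-3 is a table locus shared with other entries and starts 43.9 kb past the end of the deletion.

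The difference between groups is given below as log2(knockout FPKM + 1) minus log2(wild-type FPKM + 1). An entry was counted when this difference reached 1.5-fold in either direction and the mean of both groups was at least 1 FPKM. In the *Peril* comparison 14405 of 42760 entries reached that mean and 234 of them (1.62%) passed 1.5-fold. All 9 transcripts reached the mean and 2 passed, both higher in the knockout, a comparison that was used to choose them.

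*linc-Atp11b-3* was 5.51 higher on the log2 scale, the highest of the 14405 entries. *linc-Atp11b-4* was 2.48 higher and ranked 9. With a pseudocount of 0.1 FPKM in place of 1 the differences were 8.21 and 5.42, the wild-type values being near 0. Of 42760 entries, 28 passed from below 0.1 FPKM to at least 1 FPKM in this comparison and 25 went the other way. Of the 28, 5 were on the Y chromosome and 2 were the linc-Atp11b entries. Both were chosen with these values known, so the ranks and counts are a description only.

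*linc-Atp11b-2*, the next assembled entry past *linc-Atp11b-3* and not among the 9, was listed at 0 in wild type and stood at 0.16 FPKM in *Peril* -/- brain. *linc-Atp11b-5*, also outside the 9, shares its table locus with *Sox2* and *Sox2ot* and stood at 12.5 FPKM in wild type and 10.3 in the knockout. On the log2 scale these 2 differed by 0.21 and -0.26, so the step up seen at *linc-Atp11b-3* and *linc-Atp11b-4* was not seen at a similar size in the entries named on either side.

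*Sox2*, the gene whose distance to Peril prompts the question of local control, was at 30.5 FPKM in wild-type and 21.5 in *Peril* -/- brain. The knockout value was 70.3% of wild type, a log2 difference of -0.49, short of 1.5-fold. A difference of that size or larger was found in 2.85% of the entries at 1 FPKM or more. *Sox2ot*, the noncoding RNA across it, was at 2.53 FPKM in wild type and 1.52 in the knockout (60.2%), a log2 difference of -0.48. With a pseudocount of 0.1 FPKM the *Sox2ot* difference was -0.70, past 1.5-fold. Neither difference can be set against a spread between brains.

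The other SOX group B genes lie on other chromosomes. *Sox1* (table locus chr8:12385771-12436732) was at 9.67 FPKM in wild type and 9.58 in the knockout. *Sox3* (chrX:58144545-58146605, minus strand) was at 2.36 and 2.37 FPKM. *Sox21* (chr14:118632454-118636252, minus strand) was at 5.24 and 4.51 FPKM, a log2 difference of -0.18. *Sox14* (chr9:99774644-99776663, minus strand) was at 3.57 and 2.72 FPKM, a log2 difference of -0.29. The 2 other group B1 genes thus showed nearly equal levels in both genotypes, and both group B2 genes lower ones in the knockout, none past 1.5-fold. The summed level of the 5 genes was 51.3 FPKM in wild type and 40.6 in the knockout, and *Sox2* made up 59.4% and 52.8% of it.

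The transcripts of *Sox2*, *Sox3*, *Sox14* and *Sox21* shared only exact runs shorter than a read. The coding sequences are most alike in the HMG box, and the 60 bases of *Sox2* that best matched the other 3 members held by the reference transcripts are shown to let the difference be seen, with the 53 bases identical in all 4 in capitals. Positions count from the first base of each coding sequence.
*Sox2*, coding bases 169 to 228: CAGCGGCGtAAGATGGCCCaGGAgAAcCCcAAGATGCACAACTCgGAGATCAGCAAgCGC
*Sox3*, coding bases 472 to 531: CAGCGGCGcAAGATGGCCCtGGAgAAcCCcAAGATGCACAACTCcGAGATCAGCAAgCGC
*Sox14*, coding bases 70 to 129: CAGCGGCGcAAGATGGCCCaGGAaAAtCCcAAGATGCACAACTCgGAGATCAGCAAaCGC
*Sox21*, coding bases 64 to 123: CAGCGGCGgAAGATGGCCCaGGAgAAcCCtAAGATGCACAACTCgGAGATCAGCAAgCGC

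*Sox21* matched *Sox2* at 58 of the 60 bases, *Sox3* at 57 and *Sox14* at 56. The longest run shared exactly between any 2 of the 4 transcripts was 38 bases, between *Sox2* and *Sox21*, which is shorter than 1 read of these libraries. *Sox1* has no transcript in the annotation used and was not compared. Matches that allow mismatches over the length of a read were not examined.

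*Atp11b* was at 28.4 FPKM in wild-type and 36.5 in *Peril* -/- brain, a log2 difference of 0.35. Differences at least that large were found in 6.64% of entries. Among the other 12 genes of its family list (P4-ATPases and their *Tmem30* partner subunits), 10 reached 1 FPKM, 0 passed 1.5-fold, 8 were higher in the knockout and 2 lower, with a median log2 difference of 0.10 against 0.00 over all entries. *Tmem30a*, the partner subunit of most P4-ATPases, was at 45.5 FPKM in wild type and 58.4 in the knockout.

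Within 1 Mb of the Peril locus the Peril table held 42 entries, 21 of them listed at 0 in both genotypes and 10 at a mean of at least 1 FPKM. The 2 linc-Atp11b entries were the ones past 1.5-fold, against 1.62% of all entries. The 5 other entries at that mean that are not among the 9 had log2 differences of -0.26 to 0.48. The highest, *Ttc14*, was at 14.2 FPKM in wild type and 20.3 in the knockout, and its locus neighbour *Ccdc39* was at 7.37 and 9.73 FPKM. *Fxr1*, an RNA-binding protein gene, was at 29.5 and 32.4 FPKM.

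*Ttc14* and *Atp11b* were also higher in the knockout at E13.5 in the linc-Brn1b strain, where the Peril locus was not targeted and 7.06% of all entries passed 1.5-fold. There *Ttc14* was at 14.7 FPKM in wild type and 23.9 in the knockout, past 1.5-fold, and *Atp11b* at 15.4 and 21.1 FPKM. *Dnajc19*, a mitochondrial import gene of the same 1 Mb, passed 1.5-fold the other way, at 29.2 FPKM in wild type and with a log2 difference of -0.67. At E15.5 and P7 of that strain 0 neighbours passed, with *Ttc14* at 21.2 and 19.8 FPKM at E15.5 and at 18.8 and 16.4 FPKM at P7.

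**Figure D2:**
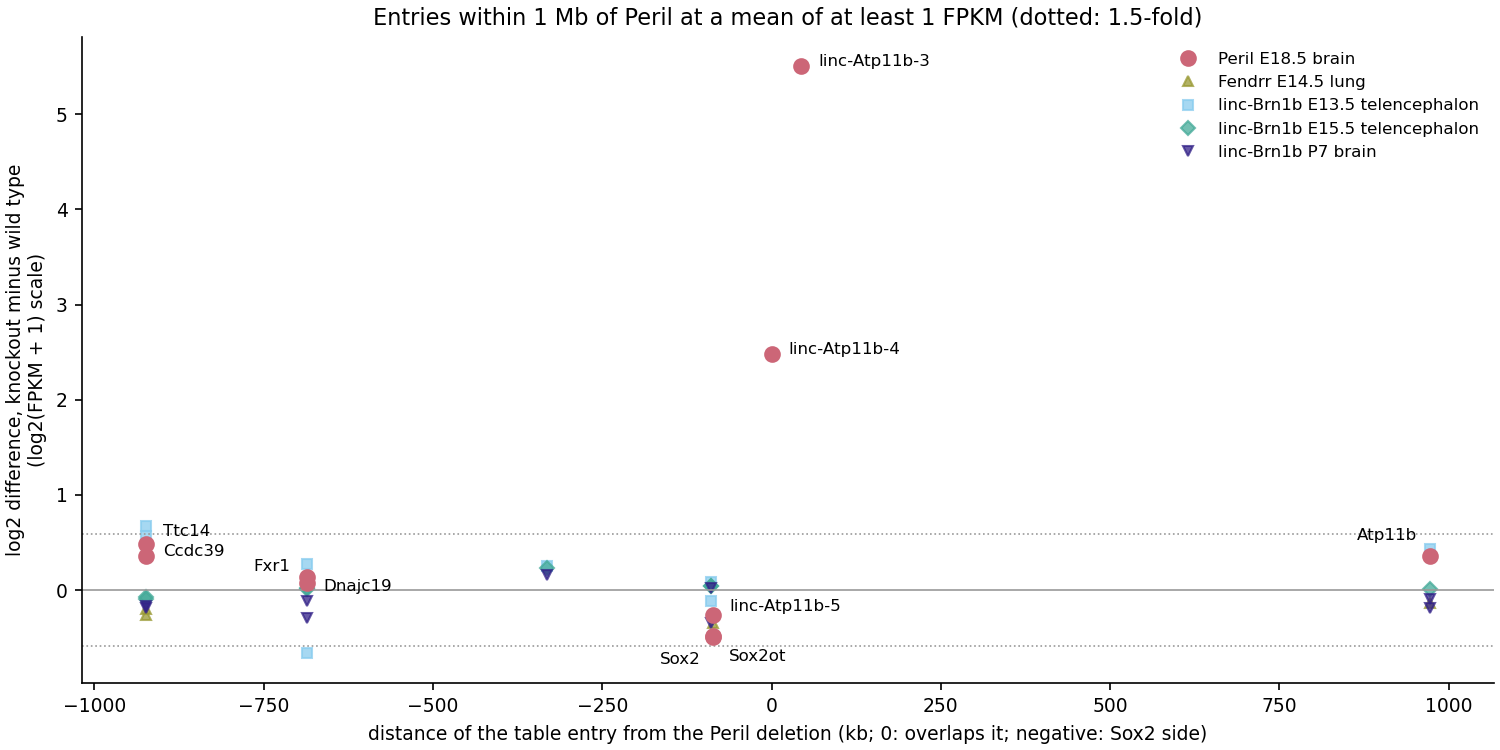
Log2 difference (knockout minus wild type, log2(FPKM + 1) scale) of each entry within 1 Mb of Peril at a mean of at least 1 FPKM, against its distance from the deletion in kb, for the 5 comparisons; dotted lines mark 1.5-fold. In the Peril comparison linc-Atp11b-3 (5.51) and linc-Atp11b-4 (2.48) stand above all the rest, and Sox2 and Sox2ot sit at -0.49 and -0.48.

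Other genes that differ between the *Peril* groups stand beside these values. The Y-linked *Ddx3y*, listed at 0 in wild type, was at 6.86 FPKM in the knockout, and *Xist* was at 92.5 FPKM in wild type and 47.9 in the knockout, so the sexes of the pooled brains were not matched. The choroid plexus list summed to 870 FPKM in wild type and 603 in the knockout, with all 6 of its 7 genes that reached 1 FPKM lower and *Ttr* at 807 and 551 FPKM. All 5 endothelial markers were lower, their sum going from 42.9 to 34.3 FPKM, and all 4 microglia markers were lower, from 26.7 to 22.2 FPKM. Erythroid markers summed to 93.6 FPKM in wild type and 56.1 in the knockout, with the globin gene *Hbb-b1* past 1.5-fold at 89.2 and 52.8 FPKM. All 5 telencephalon markers were higher, from 188 to 216 FPKM, as were all 4 astrocyte markers, from 49.8 to 59.7 FPKM. Their part in the *Sox2* and *Sox2ot* values was not tested. In bulk tissue fewer cells of a type and less RNA per cell cannot be told apart.

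Lists of genes that share territory with *Sox2* were set beside it. Of the 14 other SOX genes, 12 reached 1 FPKM in the *Peril* comparison and 0 passed 1.5-fold, with a median log2 difference of -0.02. *Sox11*, which acts in maturing neurons, was at 53.7 and 65.1 FPKM and *Sox9*, a gliogenic factor, at 8.51 and 9.18 FPKM. Of the 10 neural progenitor genes, 10 reached 1 FPKM and 0 passed, with a median of -0.05. *Vim* and *Nes*, intermediate filament genes of progenitors, were at 150 and 120 FPKM and at 18.2 and 14.4 FPKM, while *Fabp7*, a radial glia lipid carrier, was at 715 FPKM in wild type and 928 in the knockout. The progenitor genes thus lay on both sides of 0, with 4 higher and 6 lower in the knockout.

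**Figure D3:**
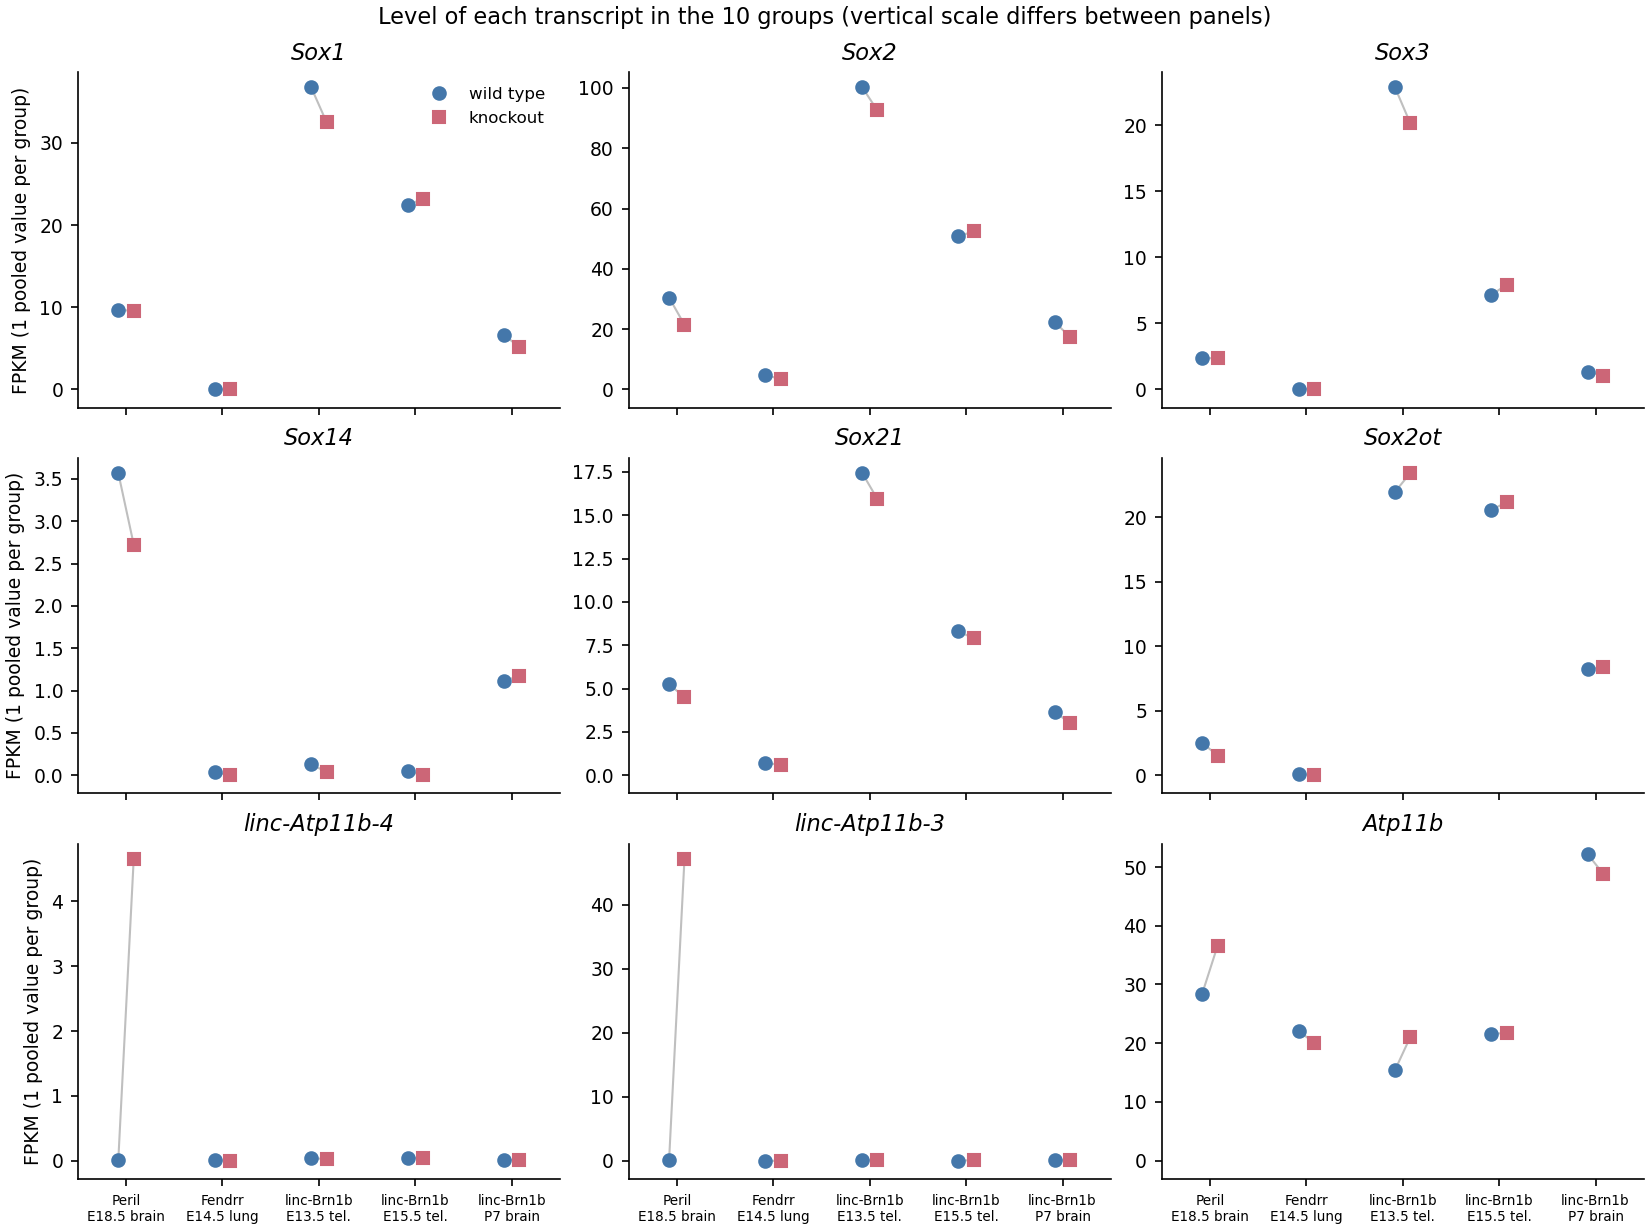
FPKM of the 9 transcripts in the 10 groups, 1 pooled value per group and no error bars (circles wild type, squares knockout; each panel has its own scale). The linc-Atp11b-3 and linc-Atp11b-4 panels hold a single high point each, the Peril knockout at 47.2 and 4.65 FPKM, whereas Sox2 is highest at E13.5.

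In E14.5 lung the SOX group B genes were nearly limited to *Sox2*. It was at 4.70 FPKM in wild-type and 3.49 in *Fendrr* -/- lung, a log2 difference of -0.35, which 6.41% of entries equalled or passed. *Sox2* made up 85.9% of the summed group B level in wild type and 84.1% in the knockout. *Sox21* followed at 0.710 and 0.591 FPKM, and *Sox1*, *Sox3* and *Sox14* were each at or below 0.0685 FPKM. The *Sox2ot* entry was at 0.0654 and 0.0297 FPKM. At the same table locus *linc-Atp11b-5* was at 0.174 FPKM in both genotypes, so *Sox2* was present in lung with little of either. *Atp11b* was at 22.1 and 20.1 FPKM. Of the 9 transcripts 2 reached a mean of 1 FPKM and 0 passed 1.5-fold, against 2.22% of all 13979 entries.

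*Sox2* marks the proximal airway, so the airway epithelium list was set beside it. All 11 of its genes reached 1 FPKM in lung and 0 passed 1.5-fold. In the knockout 8 were lower and 3 higher, with a median log2 difference of -0.16 against 0.00 over all entries. The airway genes named next are all among the 8 lower ones. *Cdh1* and *Epcam*, epithelial adhesion genes, were at 44.2 and 34.4 FPKM and at 94.7 and 84.8 FPKM, and *Nkx2-1*, the lung epithelial regulator, was at 61.4 and 53.1 FPKM. *Foxj1*, which drives multiciliated cells, was at 2.21 and 1.34 FPKM. Of the other SOX genes in lung, *Sox17*, an endothelial and endodermal factor, passed 1.5-fold, at 8.97 FPKM in wild type and 5.65 in the knockout. Cardiac muscle markers were higher in the knockout for all 5 genes, their sum going from 292 to 899 FPKM, erythroid markers summed to 1172 and 646 FPKM, and the sexes differed too, with *Ddx3y* at 10.6 FPKM in wild type and listed at 0 in the knockout. Their part in the *Sox2* value was not tested.

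In the linc-Brn1b comparisons none of the 9 transcripts that reached a mean of 1 FPKM passed 1.5-fold, and those below it, such as *Sox14* at E13.5 (0.129 FPKM in wild type, 0.0364 in the knockout), were not counted. At E13.5, 6 reached a mean of 1 FPKM and 0 passed, against 7.06% of 13507 entries. *Sox2* was at 100.4 FPKM in wild type and 92.6 in the knockout, *Sox1* at 36.8 and 32.5, *Sox3* at 22.8 and 20.1, and *Sox21* at 17.5 and 15.9. All 4 were a little lower in the knockout, with log2 differences of -0.12 to -0.18, while the median over all entries was 0.06. Differences at least that large were common, found in 65.7% of entries for *Sox2* and in 49.8% for *Sox3*, the widest of the 4. *Sox2ot* was at 22.0 FPKM in wild type and 23.4 in the knockout. The other P4-ATPase genes shared the direction of *Atp11b* at this age, with 10 of the 10 at 1 FPKM higher in the knockout and 0 past 1.5-fold. Their median log2 difference was 0.22 against 0.06 over all entries, so the median entry was also higher in the knockout. The sexes were unmatched at all 3 ages of this strain, *Ddx3y* being at 13.6 FPKM in wild type and listed at 0 in the knockout at E13.5, and the reverse way round later (0.00108 and 4.98 FPKM at E15.5, 0.0116 and 7.12 FPKM at P7). At E13.5 endothelial markers summed to 43.3 FPKM in wild type and 32.4 in the knockout. Erythroid markers summed to 112 and 41.6 FPKM, with *Hbb-b1* past 1.5-fold (106 and 34.8 FPKM). Of the 2 erythroid markers at 1 FPKM, *Hbb-b1* was lower in the knockout and the other was higher. The 4 microglia markers, all lower, summed to 12.9 and 8.83 FPKM, with *C1qa* past 1.5-fold (4.28 and 1.81 FPKM). The part of sex and of these markers in the values of the 9 transcripts, including that of X-linked *Sox3*, was not tested.

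At E15.5, 6 reached the mean and 0 passed, against 0.473% of 13521 entries. *Sox2* was at 50.8 FPKM in wild type and 52.5 in the knockout, and the differences of the 6 lay between -0.06 and 0.13. *Sox3* was at 7.15 FPKM in wild type and 7.93 in the knockout, the widest of the 6. In this comparison the choroid plexus list summed to 251 FPKM in wild type and 8.73 in the knockout, with *Ttr* at 231 and 1.39 FPKM, whereas *Sox2* differed by 0.05.

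At P7, 7 reached the mean and 0 passed, against 4.32% of 14175 entries. *Sox2* was at 22.3 FPKM in wild type and 17.4 in the knockout, a log2 difference of -0.35 that 16.4% of entries equalled or passed. *Sox1* was at 6.65 and 5.13 FPKM, *Sox3* at 1.33 and 1.05 FPKM and *Sox21* at 3.66 and 2.99 FPKM, all lower in the knockout. *Sox14* was at 1.12 and 1.17 FPKM and *Sox2ot* at 8.25 and 8.39 FPKM. The progenitor genes were lower too, 8 of 10 with 3 past 1.5-fold: *Pax6* at 15.3 and 5.43 FPKM, *Fabp7* at 919 and 508 FPKM and *Vim* at 64.8 and 39.4 FPKM. Markers of cerebellum and hindbrain summed to 49.0 FPKM in wild type and 19.2 in the knockout astrocyte markers to 244 and 166 FPKM, and oligodendrocyte markers to 491 and 296 FPKM with 3 of 5 past 1.5-fold, and their part in these values was not tested.

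**Figure D4:**
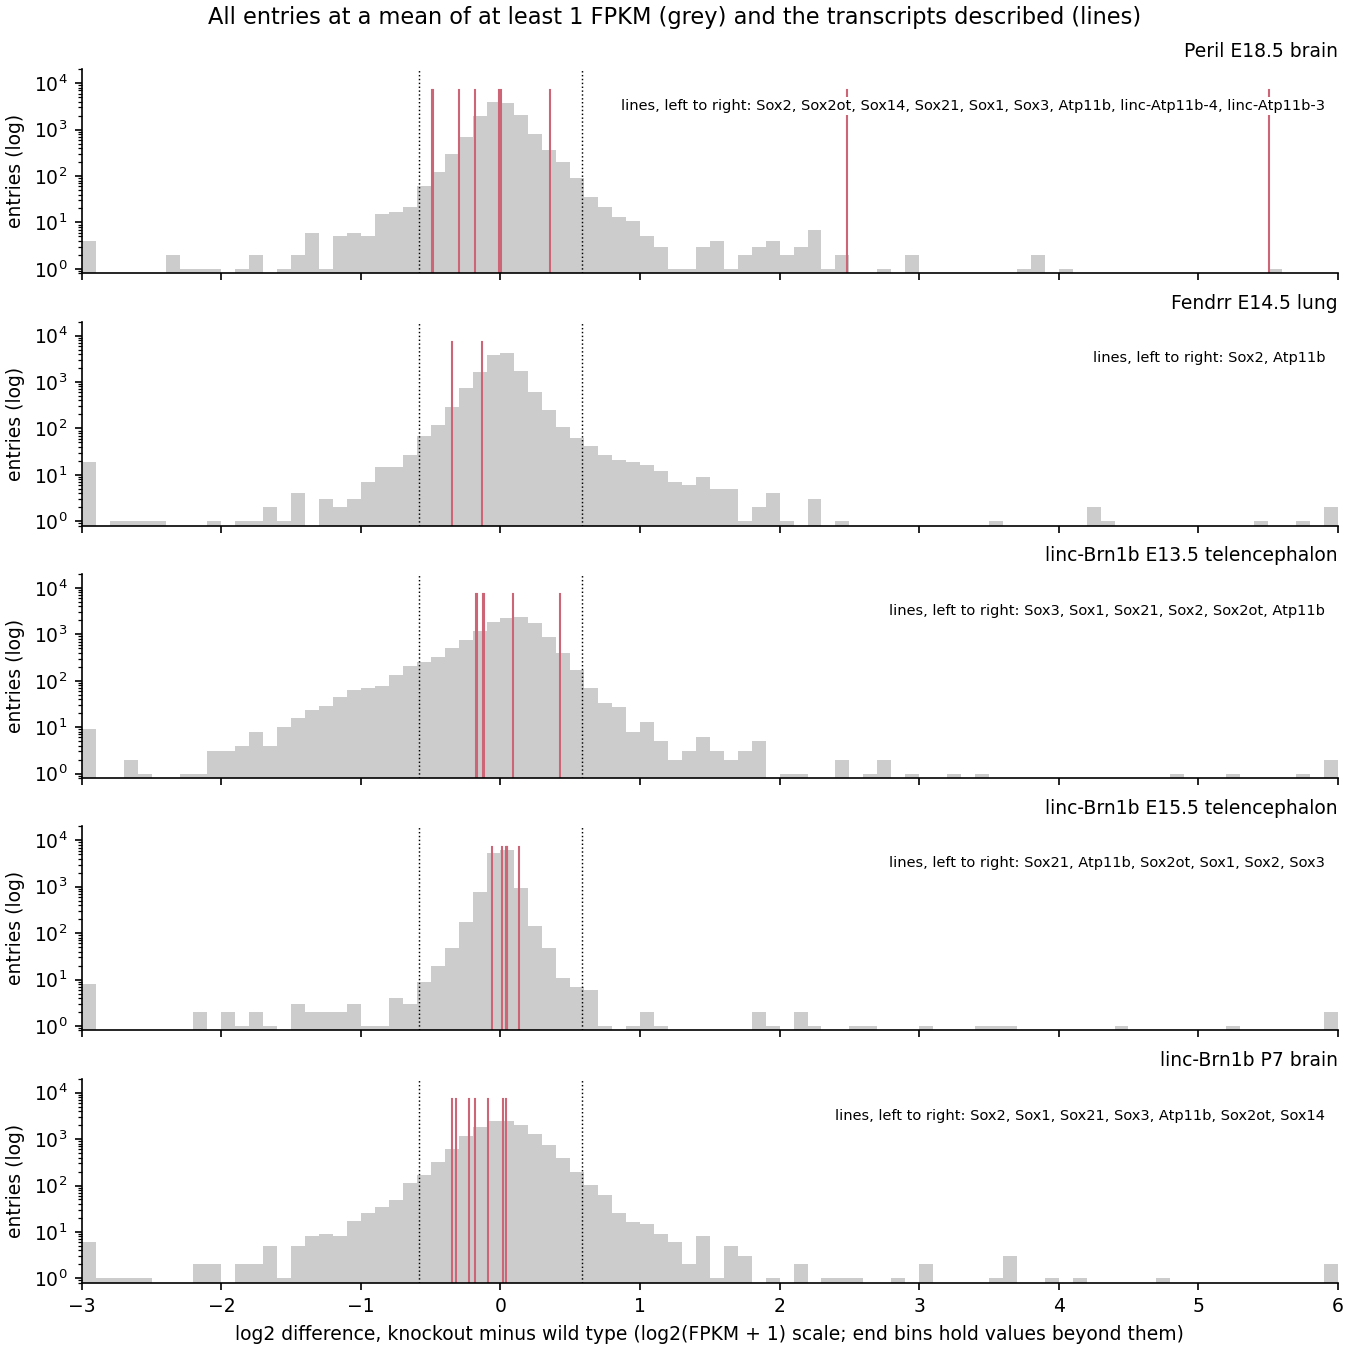
Number of entries (log axis) by log2 difference, knockout minus wild type, in each comparison, for entries at a mean of at least 1 FPKM; red lines mark the 9 transcripts where they reach that mean and dotted lines mark 1.5-fold. Lines fall beyond 1.5-fold in the Peril comparison alone, for linc-Atp11b-4 (2.48) and linc-Atp11b-3 (5.51).

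The largest differences of the SOX group B genes were between ages. In the linc-Brn1b wild types *Sox2* went from 100.4 FPKM at E13.5 to 50.8 FPKM at E15.5 and 22.3 FPKM at P7, so that P7 brain held 22.2% of the E13.5 level. In the knockouts it went from 92.6 to 52.5 and 17.4 FPKM. The knockout and wild-type values of *Sox2* at 1 age were closer to each other than to either value at the next age. P7 was whole brain and the earlier ages telencephalon, so age and tissue cannot be told apart at that step. The sexes also differed between E13.5 and E15.5 within each genotype, *Ddx3y* being at 13.6 and 0.00108 FPKM in the wild types and at 0 and 4.98 FPKM in the knockouts, so age and sex cannot be told apart at the first step.

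The 3 relatives followed the same order of ages. *Sox1* went from 36.8 to 22.4 and 6.65 FPKM in wild type. *Sox3*, which is X-linked, showed the widest span, from 22.8 to 7.15 and 1.33 FPKM, leaving 5.82% of its E13.5 level at P7. *Sox21* went from 17.5 to 8.30 and 3.66 FPKM. From E13.5 to E15.5 all 4 were lower past 1.5-fold in wild type, a call that 8.06% of 13539 entries shared. In the knockouts 3 of the 4 were, against 7.56% of 13569 entries, since *Sox1* went from 32.5 to 23.2 FPKM, short of 1.5-fold.

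From E15.5 to P7 all 4 and *Sox2ot* were lower past 1.5-fold in both genotypes, but so were 27.2% of entries in wild type and 27.4% in the knockouts. *Sox2ot* kept a different course before that, at 22.0 FPKM at E13.5 and 20.6 FPKM at E15.5 in wild type, and 8.25 FPKM at P7. *Sox2ot* was thus 21.9% of the *Sox2* level in E13.5 wild-type telencephalon, 40.5% in that of E15.5 and 37.0% in P7 brain. In the Peril wild-type brain it was 8.28%, but that table also lists *linc-Atp11b-5* at the same locus, at 12.5 FPKM, which the linc-Brn1b table does not name, so the *Sox2ot* levels of the 2 tables are not of the same set of transcripts.

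*Sox14* and *Atp11b* went the other way. *Sox14*, which marks groups of neurons outside the telencephalon such as those of the diencephalon and brainstem, was at 0.129 FPKM or less in the 4 telencephalon groups, listed at 0 in the E15.5 knockout, and at 1.12 and 1.17 FPKM in the whole-brain groups of P7. It was at 3.57 FPKM in the E18.5 whole brain of the Peril wild type. *Atp11b* went from 15.4 FPKM at E13.5 to 21.6 FPKM at E15.5 and 52.2 FPKM at P7 in wild type, and from 21.1 to 21.7 and 48.8 FPKM in the knockouts. From E15.5 to P7 it was higher past 1.5-fold in both genotypes, as were 23.5% of entries in wild type and 24.5% in the knockouts.

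**Figure D5:**
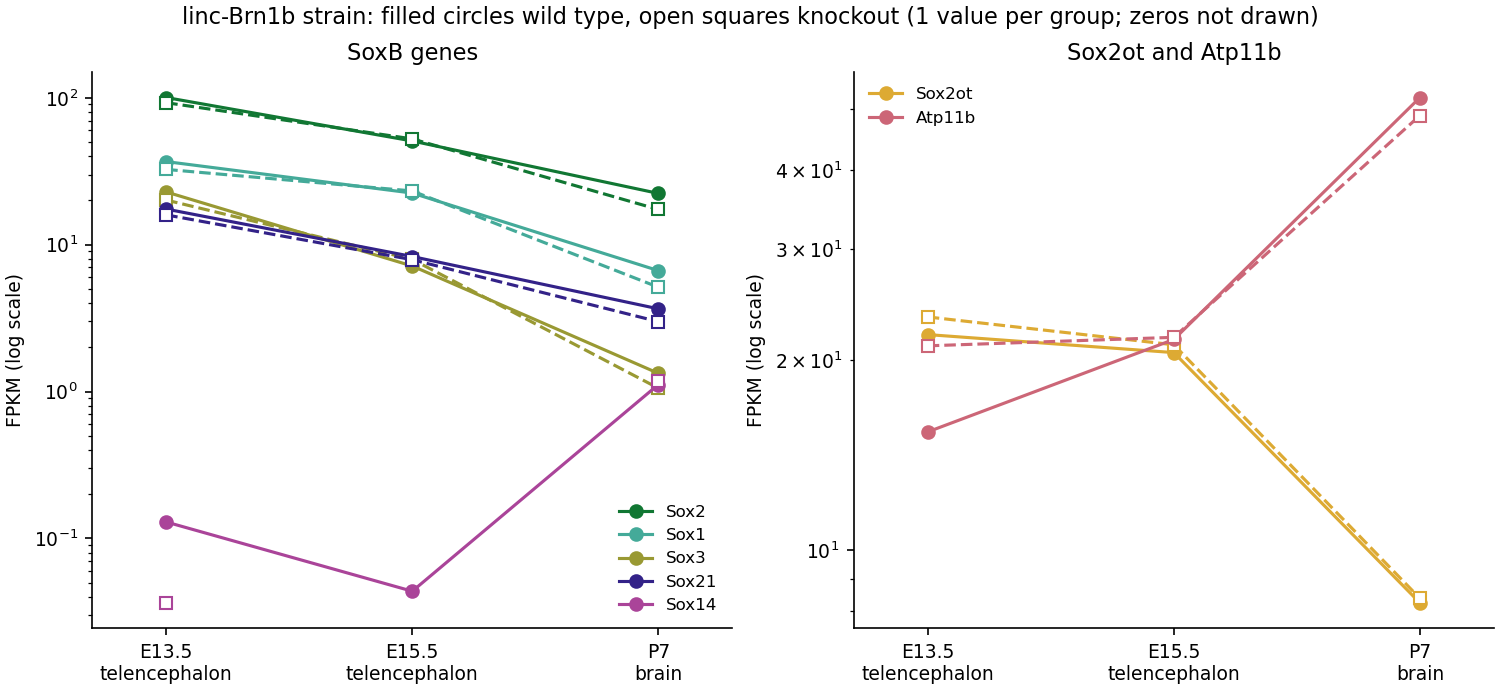
FPKM on a log scale by age in the linc-Brn1b strain, telencephalon at both embryonic ages and whole brain at P7; filled circles and solid lines are wild type, open squares and dashed lines knockout, 1 pooled value each. Sox2, Sox1, Sox3 and Sox21 go down with age in both genotypes (Sox2 from 100.4 to 22.3 FPKM in wild type), while Atp11b goes up, from 15.4 to 52.2 FPKM.

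The neural progenitor list moved with *Sox2* over these ages. From E13.5 to E15.5 in wild type, 6 of its 10 genes were lower past 1.5-fold and 0 higher, where 8.06% of all entries were lower, with a median log2 difference of -0.76 against 0.01 over all entries. From E15.5 to P7, 8 were lower and 1 higher, where 27.2% of all entries were lower and 23.5% higher, with a median of -1.32 against -0.10. *Nes* went from 132 to 55.2 and 6.41 FPKM, *Vim* from 537 to 322 and 64.8 FPKM, and *Slc1a3*, a glutamate transporter that astrocytes retain, from 32.3 to 39.0 and 148 FPKM. The 14 other SOX genes were mixed, with 3 lower and 2 higher from E13.5 to E15.5 among the 11 at 1 FPKM. *Sox4* went from 180 to 278 and 29.6 FPKM, whereas *Sox10*, an oligodendrocyte lineage factor, went from 0.318 to 1.04 and 11.8 FPKM.

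The order of the group B genes was stable at its top. *Sox2* was the highest of the 5 in all 10 groups, at 52.8% to 63.6% of their summed FPKM in the 8 brain groups, and *Sox1* was second in those 8. *Sox21* and *Sox3* changed places with age, *Sox3* being above *Sox21* at E13.5 (22.8 and 17.5 FPKM in wild type) and below it at P7 (1.33 and 3.66 FPKM). At E15.5 they were close, 7.15 and 8.30 FPKM in wild type and 7.93 and 7.90 FPKM in the knockout, and with 1 value a group their order there cannot be told.

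The genes whose course over the 6 linc-Brn1b groups was most like that of *Sox2* included *Shmt1*, *Sept9* and *Mybl2*, which ranked 2, 3 and 4 with Pearson correlations of 0.999 or above in log2(FPKM + 1) among 9268 named genes at a mean of at least 5 FPKM. *Shmt1* encodes a serine hydroxymethyltransferase of folate metabolism. *Sept9*, a septin of the cytoskeleton, went from 76.4 FPKM at E13.5 to 50.6 FPKM at E15.5 and 30.2 FPKM at P7 in wild type. *Sox3* ranked 47 (r = 0.997), *Sox21* ranked 122 (0.995), *Sox1* ranked 494 (0.986), *Sox2ot* ranked 1935 (0.937) and *Atp11b*, with the opposite course, ranked 7877 (-0.948). The 6 groups are 3 ages in 2 genotypes, so these values mostly follow age, and by Spearman's rho 393 genes tied at 1 with *Sox2*.

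Of the 9 transcripts, 5 have a promoter in the RefSeq table used (*Sox1*, *Sox2*, *Sox14*, *Sox21* and *Atp11b*, GRCm38.p6, windows of 300 bases around the start of transcription). All 5 are rich in G and C, at 65.7% to 70.7% against a median of 52.7% over 32851 promoters. The letters CCAAT, on either strand, are in the windows of *Sox1*, *Sox2* and *Sox14* and in 37.4% of all promoters. The letters GGGCGG, on either strand, are in those of *Sox1*, *Sox2*, *Sox14* and *Atp11b* and in 35.7% of all. TATAAA, in 13.6% of all promoters, is in none of these 5 windows.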

How the data were processed

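mRNA-seq libraries were made from total RNA with the TruSeq kit, per the labels and the methods of the study. The authors used TopHat2 for alignment to mm9, Cufflinks 2.0.2 for assembly and Cuffdiff2 for quantification, and deposited FPKM values in 3 tables (Peril, Fendrr and linc-Brn1b), each table scaled on its own and with 1 pooled value per group. Differences between genotypes and between ages were taken within a table. Where levels from different tables stand side by side, they were scaled separately. Columns of fold changes, test scores, p-values, q-values and calls from the authors' own comparisons are in the tables and were not used.

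Group columns were read as the second-named group first, the only reading under which every column of a linc-Brn1b group holds the same values. The Peril and Fendrr tables hold 1 comparison each and were read the same way, from the like form of their column names. Starts in the tables count from 0 and 1 was added. With no values per library (0 columns), no test across libraries, no fit without a library and no paired fit was possible, and depth, and so precision, is unknown. Differences are log2(FPKM + 1), counted past 1.5-fold at a mean of at least 1 FPKM over both groups. The code of the fold call was run on simulated data, which checks the code and not the precision of the calls. Python 3.11.15, numpy 2.4.6, pandas 2.3.3 and matplotlib 3.10.9 were used.

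The members and gene lists were chosen with earlier results of these data known. Genes named are the 9 transcripts, genes on the lists, entries within 1 Mb of Peril at a mean of at least 1 FPKM, and the 5 genes most like *Sox2* at a mean of at least 5 FPKM over the linc-Brn1b groups. Some items that these rules select are not reported here. *linc-Atp11b-2*, *linc-Cox4nb-4* and the entries of the targeted lincRNAs were named after their values were seen. Positions are those of the tables, GENCODE vM1 and the mm9 genome. Probes and primers were matched exactly to chromosome 3. Where a SOX gene had several transcripts the longest was used. Alternatives were a pseudocount of 0.1 FPKM, centring, other folds and minimum levels, other windows and Spearman's rho.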

Additional observations from a re-analysis of the deposited data

How the results depend on the processing

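No paired analysis was possible because the tables used hold 1 pooled value per group, and for the same reason leaving out a library could not be done. Over 420 values of 135 results under other settings, 364 were labelled the same, 56 moved and 0 reversed. Only a difference past 1.5-fold could be labelled reversed, and these settings could hardly change its sign, so the 0 carries no weight. Differences of transcripts below a mean of 1 FPKM were labelled the same whatever their size. In the Peril comparison the 2 entries past the fold became 1 at a minimum mean of 5 FPKM, for the 9 transcripts and for the neighbours alike, and with the fold lowered to a difference of 25% it was 5 transcripts, 7 neighbours and 6 genes of the other SOX, progenitor, airway and flippase lists. At 25% the transcripts counted were 1 in lung, 1 at E13.5 and 1 at P7, the neighbours 1, 4 and 1, and the listed genes 6, 7 and 12, with 1 listed gene at E15.5. At 2-fold, 0 listed genes in lung, 1 at P7 and 0 neighbours at E13.5 were left. With a pseudocount of 0.1 FPKM 3 listed genes passed in lung, 3 at E13.5 and 7 at P7, *Sox2ot*, *linc-Atp11b-4* and *linc-Atp11b-3* reached -0.70, 5.42 and 8.21 in the Peril comparison, and *Sox3* at P7 reached -4.004 against E13.5 in wild type and -4.13 against E13.5 and -2.80 against E15.5 in the knockouts. Centring on the median of all entries gave 2 listed genes at E13.5. Within 0.5 Mb 0 neighbours passed at E13.5, and within 2 Mb 3 passed at P7. Of the 5 genes most like *Sox2*, 1 was shared with a pseudocount of 0.1 FPKM and 0 with Spearman's rho. The number of reads behind each value is unknown, so the precision of low values such as 0.0109 FPKM cannot be given.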
